A study of Mus musculus with 12 samples.

Results

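Transcripts of the collagen genes were examined in heart tissue of C57BL/6J mice. The genes were taken as the rows of the table whose symbol has the form Col, a number, the letter a and a number, with at least 0.5 RPKM in 3 or more of the 12 libraries. RPKM counts the reads of a gene per kilobase of its exons and per unit of sequencing depth. Of 31722 rows 44 carried such a symbol, and 32 of these were admitted: 8 fibrillar, 8 of the basement membrane, 5 beaded, 6 FACIT (fibril-associated collagens with interrupted triple helices), 2 transmembrane and 3 of the short-chain network or anchoring fibrils. Assigning the genes to these types, with types XV and XVIII placed in the basement membrane and type XXVIII among the beaded collagens, followed their textbook classes.

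Collagens are secreted, triple-helical proteins that carry the tensile load of the extracellular matrix. In the heart, fibroblasts make most of the fibrillar types I, III and V, which form the interstitial fibres and, after injury, the scar. Type IV chains assemble into the sheet-like network of the basement membrane that surrounds each cardiomyocyte and capillary. Type VI forms beaded microfibrils that link this membrane to the fibres, and FACIT collagens sit on the surface of fibrils.

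The CCl4 group held hearts of 6 mice given carbon tetrachloride, a solvent that damages the liver and was used here as a model of cirrhosis. The Control group held hearts of 6 mice labelled as controls. The study addressed how cirrhosis of the liver acts on cardiac function. Dose, duration, age, sex and the chamber sampled are not stated in the labels, and each heart is a library of its own.

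The reads behind the RPKM scale could be recovered as whole numbers for 86.1% to 86.9% of genes per library, within 0.05 of a read. The library totals on this scale ran from 39676824 to 63408183 reads in CCl4 hearts and from 26352337 to 57822439 reads in Control hearts. Of the 32 collagen genes 29 gave whole reads in all 12 libraries. The others were Col8a1 and Col20a1, whole in 1 library each, and Col11a2, whole in 0. The read numbers recovered for these genes are less certain. Behind single values lay between 1734 and 29328 reads for Col1a1 and between 6 and 678 for Col8a2. Most low read numbers were even, so these are not all independent molecules. Libraries that stood apart were CCl4 replicate 3, which had the highest value of the 12 hearts in 41.4% of the 14087 genes tested, and CCl4 replicate 2, which had the lowest in 44.7%. Markers of atrial cardiomyocytes summed to 833 to 11700 RPKM in CCl4 hearts and to 604 to 15000 RPKM in Control hearts, highest in CCl4 replicate 4 and Control replicate 1. The sum hides that the 4 markers differ in direction. Their log2 difference, CCl4 minus Control, was negative in 3 and positive in 1, with a median of -1.62, and 0 passed the test. CCl4 replicate 6 summed to 6680 RPKM but had the lowest mean log2(RPKM + 1) of these markers among the 12 hearts, at 3.66. Cardiomyocyte markers summed to 16100 to 24900 RPKM in CCl4 hearts and to 21700 to 27400 RPKM in Control hearts, with the lowest value in CCl4 replicate 3.

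In CCl4 hearts most collagen genes had a higher average than in Control hearts, unevenly from heart to heart, and no collagen gene passed the test. The fibrillar genes Col1a1, Col1a2, Col3a1, Col5a1 and Col5a2, the type VIII gene Col8a1 and the fibril-surface genes Col14a1 and Col16a1 stood at 2.20 to 14.8 times their Control mean in CCl4 replicates 3, 5 and 6. The same genes stood at 0.532 to 1.99 times that mean in the other 3 CCl4 hearts. The main basement membrane genes Col4a1 and Col4a2 had the highest mean levels of the collagens in Control hearts. They lay lower in 5 of 6 CCl4 hearts than the Control median. Col5a3 and Col6a6 were under the median of the Control hearts in each of the 6 CCl4 hearts.

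The 27 collagen genes with at least 0.5 RPKM in 6 or more libraries entered a limma fit of log2(RPKM + 1) over all 14087 genes that met the same filter. At a Benjamini-Hochberg adjusted p under 0.05, 0 collagen genes were higher and 0 lower in CCl4 hearts, where 0.00% of all genes tested were called in either direction. At an unadjusted p under 0.05, 2 of 27 were higher and 3 lower, against 1.60% and 8.58% of all genes tested. The balance depended on the scaling. Under median-of-ratios scaling 11 collagen genes were higher and 2 lower, where 772 and 792 of the 14087 genes tested were. When depth was counted without mitochondrial transcripts the collagen counts were 10 and 1, where 704 and 579 of all genes were. Under TPM scaling, which brings the RPKM of each library to the same sum, they were 1 and 3, where 124 and 1497 of all genes were. With limma's array weights, 14 collagen genes were called higher and 3 lower at an adjusted p under 0.05, where 5.47% and 10.5% of all genes were called. Leaving out 1 library at a time, the unadjusted collagen counts ran from 1 to 12 higher and from 1 to 5 lower. Without CCl4 replicate 2 they were 12 and 1, where 428 and 909 of all genes were. Without CCl4 replicate 3 they were 1 and 5, where 154 and 2004 of all genes were. Voom on the recovered reads called 0 collagen genes at an adjusted p under 0.05, where 0.00% of 13641 genes were called. Unadjusted, 2 collagen genes were higher and 3 lower, where 198 and 1188 of these 13641 genes were. With a score of atrial markers as covariate 0 collagen genes were called, where 0.0142% of all genes were called higher and 0.121% lower. In the limma fit without covariate the smallest adjusted p of a collagen gene was 0.192, for Col6a6. The log2 difference, CCl4 minus Control, was positive in 19 of 27 collagen genes and in 34.3% of all genes tested. Its median was 0.28 over the collagen genes and -0.05 over all genes tested, and for the collagen genes 0.07 without CCl4 replicate 3 and 0.14 without CCl4 replicate 6. No collagen gene had groups without overlap, which 0.0355% of genes tested had on the higher side and 0.724% on the lower. The other 5 admitted genes, Col8a2, Col9a2, Col12a1, Col22a1 and Col4a6, did not meet the filter of the fit. With a filter of 3 libraries, 6 of 32 were higher and 3 lower at an unadjusted p under 0.05, where 1.86% and 8.33% of all genes tested were. The 4 higher genes added by this filter, Col8a2, Col9a2, Col12a1 and Col22a1, met it only or mainly through CCl4 hearts, which sets their direction, so nothing is read from that count.

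**Figure D1:**
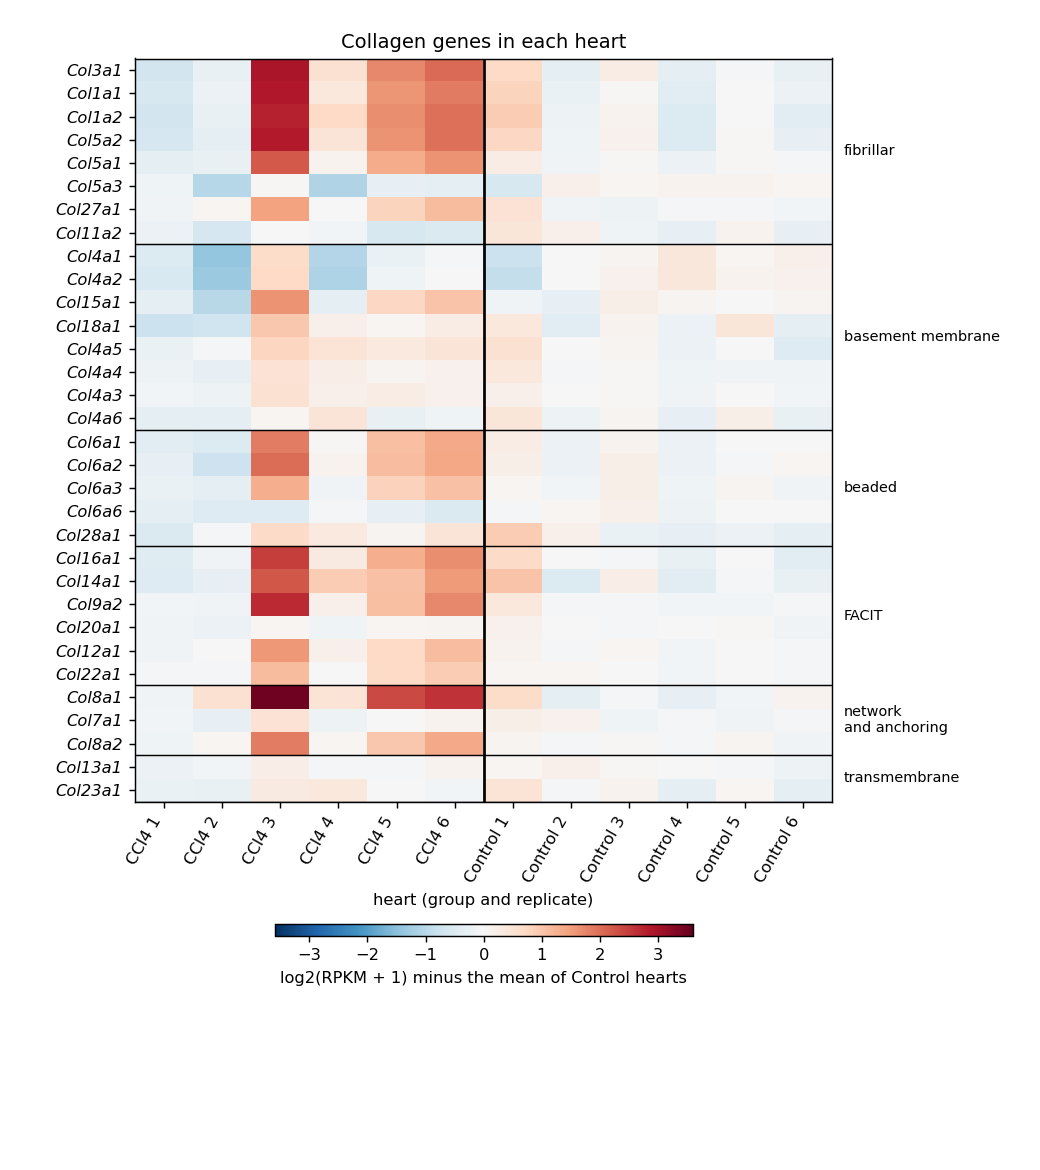
Level of each of the 32 collagen genes (rows, grouped by type) in each of the 12 hearts (columns, CCl4 left of the line and Control right), as log2(RPKM + 1) minus the mean of the 6 Control hearts. Red cells stand above that mean and blue cells below it. Most cells of CCl4 replicates 3, 5 and 6 are red, and the rows of Col4a1, Col4a2 and Col5a3 are blue in CCl4 replicates 2 and 4 and in Control replicate 1.

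Among the fibrillar collagens, Col1a1 and Col1a2, which encode the chains of type I collagen, the stiff fibre of tendon and scar, had the same order among CCl4 hearts. Col1a1 (GRCm38 chromosome 11, 94936224 to 94953042) was at 7.53, 9.95, 92.8, 15.4, 37.5 and 45.8 RPKM in CCl4 replicates 1 to 6, against 21, 9.86, 12.2, 8.51, 11.7 and 10 RPKM in Control replicates 1 to 6. CCl4 replicates 3, 5 and 6 lay above every Control heart, CCl4 replicates 2 and 4 lay among them, and CCl4 replicate 1 lay below them all. The means were 34.8 ± 32.3 RPKM in CCl4 hearts and 12.2 ± 4.51 RPKM in Control hearts (SD, n = 6 each), a log2 difference of 0.99 (SE 0.49, limma adjusted p = 0.515). Col1a2 (chromosome 6, 4504814 to 4541544) ran from 3.31 to 45.3 RPKM with a median of 15.5 in CCl4 hearts, and from 3.90 to 11.8 RPKM with a median of 5.45 in Control hearts. Its log2 difference was 1.03 (SE 0.50, limma adjusted p = 0.507), with 4 CCl4 hearts over the median of the Control hearts.

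Col3a1 encodes type III collagen, the more compliant fibre that accompanies type I in vessel walls and interstitium. It was the most abundant fibrillar collagen, at 16.5, 22.2, 209.5, 39.8, 90.1 and 112 RPKM in CCl4 replicates 1 to 6 and at 44.8, 20.7, 32.6, 21.1, 25.4 and 22 RPKM in Control replicates 1 to 6. The order of the CCl4 hearts was that of Col1a1, with replicate 3 highest and replicate 1 lowest. Its log2 difference was 1.05 (SE 0.51, 95% interval -0.05 to 2.16, limma adjusted p = 0.507). Without CCl4 replicate 3 the log2 differences were 0.68 for Col3a1 and 0.61 for Col1a1.

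Type V chains are built into type I fibrils and set their diameter. Col5a1 and Col5a2 had log2 differences of 0.78 and 1.0, with 3 of 6 CCl4 hearts above all Control hearts (limma adjusted p = 0.511 and 0.52), and of 0.50 and 0.62 without CCl4 replicate 3. Col5a3, which encodes another chain of the same collagen type, had a difference of opposite sign. It was at 5.22, 2.42, 6.18, 2.25, 4.68 and 4.39 RPKM in CCl4 replicates 1 to 6, against 3.61, 6.90, 6.33, 6.50, 6.50 and 6.31 RPKM in Control replicates 1 to 6. The 5 Control hearts other than replicate 1 lay above all 6 CCl4 hearts. The means were 4.19 ± 1.56 RPKM in CCl4 hearts and 6.03 ± 1.20 RPKM in Control hearts (log2 difference -0.48, SE 0.20, limma adjusted p = 0.43). Leaving out 1 library at a time, its limma adjusted p ran from 0.184 without Control replicate 1 to 0.72 without Control replicate 4.

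Among the rarer fibrillar genes, Col27a1, known from cartilage, was at 0.958 to 4.78 RPKM with a median of 1.96 in CCl4 hearts and at 0.878 to 2.02 RPKM with a median of 0.994 in Control hearts. It exceeded the median Control value in 5 CCl4 hearts (log2 difference 0.56, SE 0.25, limma adjusted p = 0.459). Col11a2, a chain of the cartilage fibril collagen type XI, ran from 0.930 to 2.01 RPKM in CCl4 hearts and from 1.39 to 3.04 RPKM in Control hearts (-0.33, SE 0.15, limma adjusted p = 0.476). Of the 8 fibrillar genes 6 had a positive log2 difference, and their median was 0.89.

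The promoters of a few of these genes are shown because their transcripts had the same 3 highest hearts in the same order (Col1a2, Col3a1 and Col8a1) or because a pair of genes shares the region (Col4a1 and Col4a2). The windows are from RefSeq on GRCm38.p6 and span 300 bases around the annotated gene start, on the strand of the gene. Capitals mark matches, on either strand, to the letters CCAAT of the box with that name, to TATAAA as a TATA box, and to GGGCGG as a GC box. Matches on the other strand appear as ATTGG and CCGCCC.
Col1a2, chr6:4505368-4505667, plus strand: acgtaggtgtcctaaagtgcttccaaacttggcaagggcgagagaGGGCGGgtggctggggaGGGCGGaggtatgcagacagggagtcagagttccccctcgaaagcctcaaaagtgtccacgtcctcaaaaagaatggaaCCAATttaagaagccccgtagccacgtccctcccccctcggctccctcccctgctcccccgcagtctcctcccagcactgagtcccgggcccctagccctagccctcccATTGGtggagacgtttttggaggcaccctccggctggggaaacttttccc
Col3a1, chr1:45311288-45311587, plus strand: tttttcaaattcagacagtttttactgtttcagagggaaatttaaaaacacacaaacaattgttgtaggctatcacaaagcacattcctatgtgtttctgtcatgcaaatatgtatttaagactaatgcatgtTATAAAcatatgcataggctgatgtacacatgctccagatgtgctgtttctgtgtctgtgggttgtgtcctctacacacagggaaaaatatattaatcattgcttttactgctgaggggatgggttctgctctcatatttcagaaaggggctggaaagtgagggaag
Col8a1, chr16:57754688-57754987, minus strand: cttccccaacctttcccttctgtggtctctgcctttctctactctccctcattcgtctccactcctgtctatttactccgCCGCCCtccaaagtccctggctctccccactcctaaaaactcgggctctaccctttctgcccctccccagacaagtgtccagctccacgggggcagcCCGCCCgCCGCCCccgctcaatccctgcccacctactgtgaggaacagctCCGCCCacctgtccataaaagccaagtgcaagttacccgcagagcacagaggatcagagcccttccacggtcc
Col4a2, chr8:11312555-11312854, plus strand: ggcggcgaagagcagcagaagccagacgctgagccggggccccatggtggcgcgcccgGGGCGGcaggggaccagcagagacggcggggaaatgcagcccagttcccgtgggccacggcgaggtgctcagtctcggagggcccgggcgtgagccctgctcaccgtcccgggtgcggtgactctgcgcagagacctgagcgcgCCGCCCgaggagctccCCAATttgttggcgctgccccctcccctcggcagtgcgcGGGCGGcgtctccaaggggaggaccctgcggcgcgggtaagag
Col1a2 held 2 matches each to CCAAT and GGGCGG, Col3a1 a single TATAAA, Col8a1 4 matches to GGGCGG, and Col4a2 3 to GGGCGG and 1 to CCAAT. Of the 26 collagen genes with a window, 8 held CCAAT, 3 TATAAA and 18 GGGCGG in at least 1 window. Over all 32851 windows of this length the shares were 37.4%, 13.6% and 35.7%. These shares count single windows, while a gene can have more than 1 window. The gene counts and the shares thus differ in unit, and no enrichment can be read from them. None of the 3 motifs was found in all of the Col1a2, Col3a1 and Col8a1 windows.

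Col8a1, a short-chain collagen of vessel walls that forms hexagonal networks, had the largest log2 difference of the 27 genes tested. It was at 2.23, 4.14, 38.9, 4.0, 17.2 and 20.5 RPKM in CCl4 replicates 1 to 6, against 4.55, 1.80, 2.43, 1.86, 2.27 and 2.84 RPKM in Control replicates 1 to 6. Every Control heart was below CCl4 replicates 3, 5 and 6, and 5 of the CCl4 hearts exceeded the median Control value. The means were 14.5 ± 14.2 RPKM in CCl4 hearts and 2.63 ± 1.02 RPKM in Control hearts (log2 difference 1.57, SE 0.52, limma adjusted p = 0.332). Without CCl4 replicate 3 the difference was 1.18 (limma adjusted p = 0.248). Its partner gene Col8a2 was at 0.0347 to 3.14 RPKM in CCl4 hearts and at 0.0507 to 0.229 RPKM in Control hearts, so only CCl4 replicates 3, 5 and 6 brought it past the rule. Col7a1, the collagen of anchoring fibrils under epithelia, had overlapping values of 0.466 to 1.55 RPKM in CCl4 hearts and 0.595 to 1.08 RPKM in Control hearts.

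**Figure D2:**
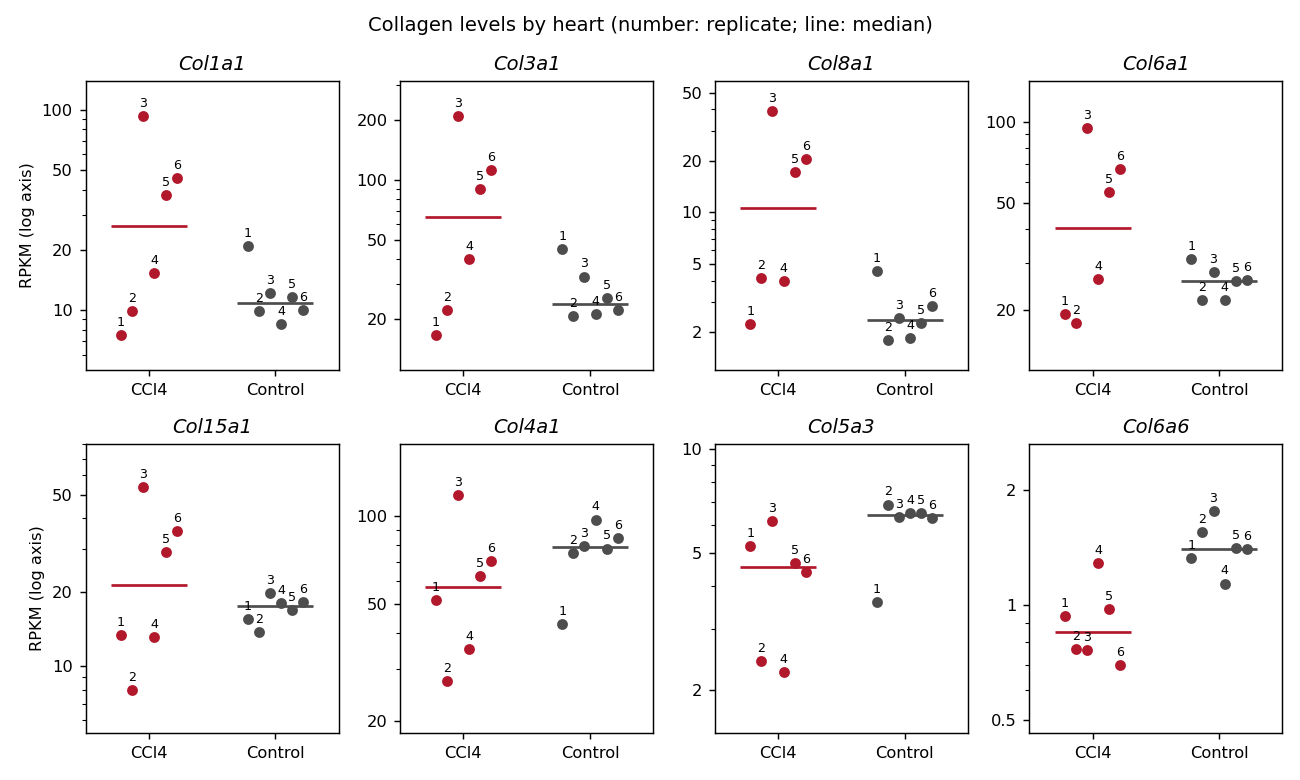
RPKM (vertical log axis) of 8 collagen genes in each CCl4 heart (left, red) and each Control heart (right, grey), numbered by replicate, with the median of each group as a line. In Col1a1, Col3a1, Col8a1, Col6a1 and Col15a1 the CCl4 replicates 3, 5 and 6 stand above all Control hearts. In Col6a6 and Col5a3 all CCl4 points lie under the Control line.

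Among the FACIT genes, Col14a1, which encodes a fibril-surface collagen of dense connective tissue, ran from 1.83 to 17.4 RPKM with a median of 6.65 in CCl4 hearts and from 1.73 to 6.96 RPKM with a median of 2.44 in Control hearts (log2 difference 0.83, SE 0.42, limma adjusted p = 0.518). Col16a1, another fibril-surface collagen, ran from 1.95 to 21.4 RPKM with a median of 6.42 in CCl4 hearts and from 2.05 to 5.41 RPKM with a median of 2.94 in Control hearts (0.87, SE 0.42, limma adjusted p = 0.507). In both genes 4 CCl4 hearts exceeded the median Control value, and without CCl4 replicate 3 the differences were 0.55 for Col14a1 and 0.54 for Col16a1. Col9a2, a chain of the cartilage collagen type IX, was at 0.245, 0.228, 7.66, 0.530, 1.81 and 3.47 RPKM in CCl4 replicates 1 to 6 and at 0.750, 0.283, 0.302, 0.243, 0.249 and 0.270 RPKM in Control replicates 1 to 6. Col12a1, a fibril-surface collagen of tendon and regenerating tissue, and Col22a1, a collagen of muscle-tendon junctions, were also low in Control hearts, at up to 0.246 and 0.169 RPKM. CCl4 replicate 3 reached 2.39 RPKM of Col12a1 and 1.44 RPKM of Col22a1. Under the filter of 3 libraries the limma adjusted p was 0.468 for Col9a2, 0.438 for Col12a1 and 0.439 for Col22a1. These genes, like Col8a2, were admitted mainly or only through CCl4 hearts, so their difference follows from the rule. Col20a1 had a log2 difference of -0.04, with 95% interval -0.19 to 0.11.

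Among the beaded collagens, Col6a1 and Col6a2 encode chains that join the chain of Col6a3 in type VI microfibrils, the collagen affected in Ullrich and Bethlem muscle diseases. Col6a1 was at 19.3, 18.0, 94.7, 26.1, 55.1 and 66.8 RPKM in CCl4 replicates 1 to 6, against 31.1, 21.9, 27.7, 21.8, 25.6 and 25.9 RPKM in Control replicates 1 to 6. Here too CCl4 replicates 3, 5 and 6 were above all Control hearts, while replicates 1 and 2 were below them all. The means were 46.7 ± 30.9 RPKM in CCl4 hearts and 25.6 ± 3.53 RPKM in Control hearts (log2 difference 0.58, SE 0.35, limma adjusted p = 0.605). Col6a2 ran from 6.91 to 52.7 RPKM with a median of 20.6 in CCl4 hearts and from 10.4 to 14.5 RPKM with a median of 12.4 in Control hearts (log2 difference 0.60, limma adjusted p = 0.622). Col6a3 ran from 2.55 to 10.2 RPKM with a median of 5.08 in CCl4 hearts and from 3.06 to 4.26 RPKM with a median of 3.47 in Control hearts (0.41, limma adjusted p = 0.629). Without CCl4 replicate 3 the log2 differences were 0.32 for Col6a1, 0.32 for Col6a2 and 0.23 for Col6a3.

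Col6a6, whose chain can stand in for that of Col6a3, had the smallest p of the 27 genes and the opposite direction. It was at 0.937, 0.770, 0.763, 1.29, 0.976 and 0.696 RPKM in CCl4 replicates 1 to 6, against 1.33, 1.55, 1.76, 1.14, 1.41 and 1.40 RPKM in Control replicates 1 to 6. Every CCl4 heart was under the median Control value, and 5 were under the lowest one, the exception being CCl4 replicate 4. The means were 0.905 ± 0.217 RPKM in CCl4 hearts and 1.43 ± 0.209 RPKM in Control hearts (log2 difference -0.35, SE 0.09, unadjusted p = 0.00103 and adjusted p = 0.192 in limma). CCl4 replicate 3, the heart with the highest Col6a1, had 0.763 RPKM of Col6a6. Between 280 and 932 reads lay behind its values, and 63 bases of its exons overlap a gene model on the opposite strand. Col28a1, a related collagen of peripheral nerve, ran from 0.349 to 2.15 RPKM in CCl4 hearts and from 0.549 to 2.64 RPKM in Control hearts.

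**Figure D3:**
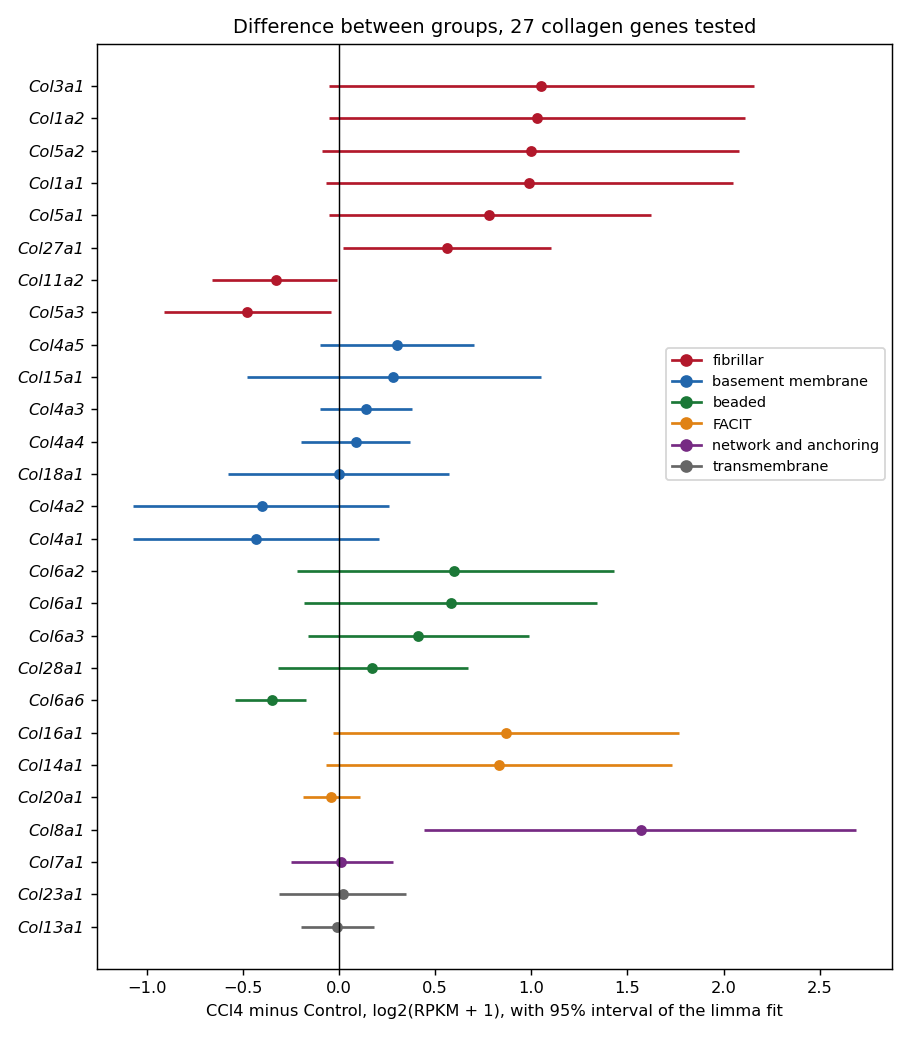
CCl4 minus Control difference in mean log2(RPKM + 1) (horizontal axis) for the 27 collagen genes tested (rows, coloured by type), with points for the limma estimate and bars for its unadjusted 95% interval. Col8a1 (1.57) lies farthest right and Col5a3 (-0.48) farthest left, and none of the genes passed at an adjusted p under 0.05.

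Among the basement membrane collagens, Col4a1 and Col4a2 encode the chains of the network common to all basement membranes. They had the highest mean levels of the collagen genes in Control hearts, though not the highest values in Control replicate 1. Col4a1 was at 51.8, 27.3, 118, 35.1, 62.7 and 70.5 RPKM in CCl4 replicates 1 to 6, against 42.8, 74.6, 79.0, 97.4, 77.6 and 84.0 RPKM in Control replicates 1 to 6. CCl4 replicate 3 was the highest of all 12 hearts, the other 5 CCl4 hearts lay below the Control median, and Control replicate 1 lay well below the other Control hearts. The means were 60.9 ± 32.3 RPKM in CCl4 hearts and 75.9 ± 18.1 RPKM in Control hearts (log2 difference -0.43, SE 0.30, limma adjusted p = 0.657). Col4a2 ran from 19.6 to 83.3 RPKM with a median of 39.8 in CCl4 hearts and from 27.5 to 67.8 RPKM with a median of 55.6 in Control hearts (-0.40, SE 0.31, limma adjusted p = 0.69). Without CCl4 replicate 3 the difference of Col4a1 was -0.65 (limma adjusted p = 0.257), without CCl4 replicate 2 it was -0.23, and without both libraries richest in atrial markers, chosen after the data were seen, it was -0.46.

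The 5 endothelial markers Pecam1, Cdh5, Tie1, Esam and Kdr summed to 78.7 to 119 RPKM in CCl4 hearts and to 125 to 155 RPKM in Control hearts. All 5 were lower in CCl4 hearts, as were 9262 of the 14087 genes tested, and none passed the test. Lower at an unadjusted limma p under 0.05 were all 5, and 8.58% of all genes tested. In 2 of the 5 every CCl4 heart lay below every Control heart, as in 0.724% of all genes tested. Among the CCl4 hearts, replicate 2 was lowest both in this sum and in Col4a1, and replicate 3 was highest in both. Over all genes tested, CCl4 replicate 2 was the lowest of the 12 hearts in 44.7% and CCl4 replicate 3 the highest in 41.4%. Among Control hearts, replicate 1 was lowest in both. Less RNA per cell and fewer cells of a type cannot be told apart in heart tissue, and the part of these cells in the levels of Col4a1 and Col4a2 was not tested.

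CCl4 replicate 3 was the highest of the 12 hearts in all 7 basement membrane genes tested, and CCl4 replicate 2 the lowest in 5. Col15a1, a collagen of the zone between basement membrane and interstitium, was at 13.4, 8.0, 53.7, 13.1, 29.2 and 35.4 RPKM in CCl4 replicates 1 to 6, against 15.6, 13.7, 19.8, 18.1, 17.0 and 18.3 RPKM in Control replicates 1 to 6. All Control hearts were below CCl4 replicates 3, 5 and 6 and above CCl4 replicates 1, 2 and 4 (log2 difference 0.28, SE 0.36, limma adjusted p = 0.833). The order of the CCl4 hearts was that of Col4a1. The difference was 0.02 without CCl4 replicate 3 and 0.54 without CCl4 replicate 2. Col18a1, the source of the fragment endostatin, had medians of 5.74 RPKM in CCl4 hearts and 5.04 RPKM in Control hearts. The log2 differences of Col4a3, Col4a4 and Col4a5, whose chains form the network of the kidney glomerulus, were 0.14, 0.09 and 0.30 (limma adjusted p = 0.607 or more). Col4a6, known from smooth muscle basement membranes, was highest in the atrium-rich libraries, at 0.989 RPKM in CCl4 replicate 4 and 0.969 RPKM in Control replicate 1, and at 0.144 to 0.537 RPKM in the other CCl4 hearts and 0.189 to 0.679 RPKM in the other Control hearts.

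The transmembrane collagens Col13a1, known from the neuromuscular junction, and Col23a1 had log2 differences of -0.01 (95% interval -0.20 to 0.18) and 0.02 (-0.31 to 0.35). Col13a1 ran from 0.740 to 1.38 RPKM in CCl4 hearts and from 0.775 to 1.29 RPKM in Control hearts, and Col23a1 from 0.466 to 1.26 and from 0.384 to 1.47 RPKM. Col13a1 had means of 1.02 ± 0.238 RPKM in CCl4 hearts and 1.03 ± 0.177 RPKM in Control hearts, and Col23a1 of 0.798 ± 0.355 and 0.785 ± 0.404 RPKM. The log2(RPKM + 1) scale compresses differences at levels this low, and the intervals do not show that the groups are alike.

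Heart by heart, CCl4 replicate 3 lay above all Control hearts in 21 of the 27 collagen genes tested, where it did so in 45.1% of all genes tested. CCl4 replicate 5 did so in 14 (12.1% of all genes) and CCl4 replicate 6 in 13 (22.9%). In CCl4 replicates 1, 2 and 4, 0 of 27 exceeded the highest Control value, against 1.77%, 2.26% and 10.2% of all genes. Below all Control hearts, CCl4 replicate 1 lay in 16 of 27 and CCl4 replicate 2 in 15, where 47.0% and 60.6% of all genes did. CCl4 replicate 4 lay there in 6 (24.3% of all genes). The median distance of the 8 fibrillar genes from the Control mean, on the log2(RPKM + 1) scale, was -0.45, -0.27, 2.49, 0.24, 1.47 and 1.76 in the CCl4 hearts from replicate 1 to 6. For the 7 basement membrane genes tested it was -0.32, -0.72, 0.71, 0.17, 0.11 and 0.16 in the same hearts, and over all genes tested -0.17, -0.25, 0.14, -0.03, -0.02 and 0.05.

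CCl4 replicates 3, 6 and 5 were the 3 highest of the 12 hearts, in that order, for 13 of the 27 collagen genes tested and 4.68% of all genes, a comparison made after the values were seen. Of the 5 other admitted genes 4 had the same order, but Col8a2, Col12a1 and Col22a1 were admitted through these 3 hearts alone, and Col9a2 mainly through CCl4 hearts, so the rule sets their place. The 17 genes were Col1a1, Col1a2, Col3a1, Col5a1, Col5a2, Col27a1, Col15a1, Col6a1, Col6a2, Col6a3, Col9a2, Col12a1, Col14a1, Col16a1, Col22a1, Col8a1 and Col8a2. They span 5 of the 6 types, and none is transmembrane. Relative to its Control mean, CCl4 replicate 3 held 7.60 times the level of Col1a1, 7.55 times that of Col3a1, 14.8 times that of Col8a1 and 21.9 times that of Col9a2. The spread between hearts on the log2(RPKM + 1) scale had a median SD of 0.735 in CCl4 hearts and 0.305 in Control hearts over the 27 collagen genes, against 0.213 and 0.139 over all genes tested.

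Markers of fibroblasts (Pdgfra, Tcf21, Dpt, Mfap5, Gsn, Pi16 and Lamb1) summed to 284 to 537 RPKM in CCl4 hearts and to 291 to 589 RPKM in Control hearts, with the highest sum in Control replicate 1. Of these 7, 6 were higher on average in CCl4 hearts. Their log2 difference was positive in 5 and negative in 2, with a median of 0.35, and 0 passed. Markers of activated fibroblasts (Postn, Cthrc1, Comp, Fap and Meox1) summed to 22.1, 32.7, 496, 33.5, 147 and 211 RPKM in CCl4 replicates 1 to 6 and to 29.2 to 47.4 RPKM in Control hearts, in the same order of hearts as Col1a1 in CCl4 replicates 3, 6 and 5. All 5 were higher on average in CCl4 hearts, and 0 of the 4 tested passed. Postn alone held 349, 104 and 151 RPKM of the sums in CCl4 replicates 3, 5 and 6, so their order is mostly its own. It is also listed among the fibril partners. Macrophage markers, 4 of 4 higher on average, summed to 10.2 to 68.9 RPKM in CCl4 hearts and to 12.7 to 17.7 RPKM in Control hearts, highest in CCl4 replicates 3, 6 and 5. Cartilage and tendon markers summed to 6.78 to 77.0 RPKM in CCl4 hearts and to 6.02 to 31.8 RPKM in Control hearts. The cartilage list shares Comp with the activated fibroblasts, and its cartilage gene Matn3 was below 0.5 RPKM in every heart. The part of these cells in the collagen levels was not tested.

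The make-up of the summed collagen level differed from heart to heart as well. Summed over the 32 genes, collagen transcripts held 190.5, 152.1, 967.4, 233.2, 471.9 and 570.9 RPKM in CCl4 replicates 1 to 6 and 251.7 to 300 RPKM in Control hearts. Fibrillar genes made up 22.1%, 32.6%, 44.9%, 36.0%, 40.3% and 41.3% of the sum in CCl4 replicates 1 to 6. In Control hearts they made up 36.7% in replicate 1 and 17.5% to 23.9% in the others. Basement membrane genes made up 28.5% to 55.8% in CCl4 hearts, and in Control hearts 36.2% in replicate 1 and 55.6% to 66.5% in the others. The fibrillar share exceeded that of every Control heart in CCl4 replicates 3, 5 and 6. With Control replicate 1 set aside after its value was seen, it did so in 5 of 6 CCl4 hearts. These include CCl4 replicate 2, whose summed level was the lowest of all 12. There Col1a1 and Col3a1 stood at 0.814 and 0.798 times their Control mean, and Col4a1 and Col4a2 at 0.36 and 0.374 times theirs.

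**Figure D4:**
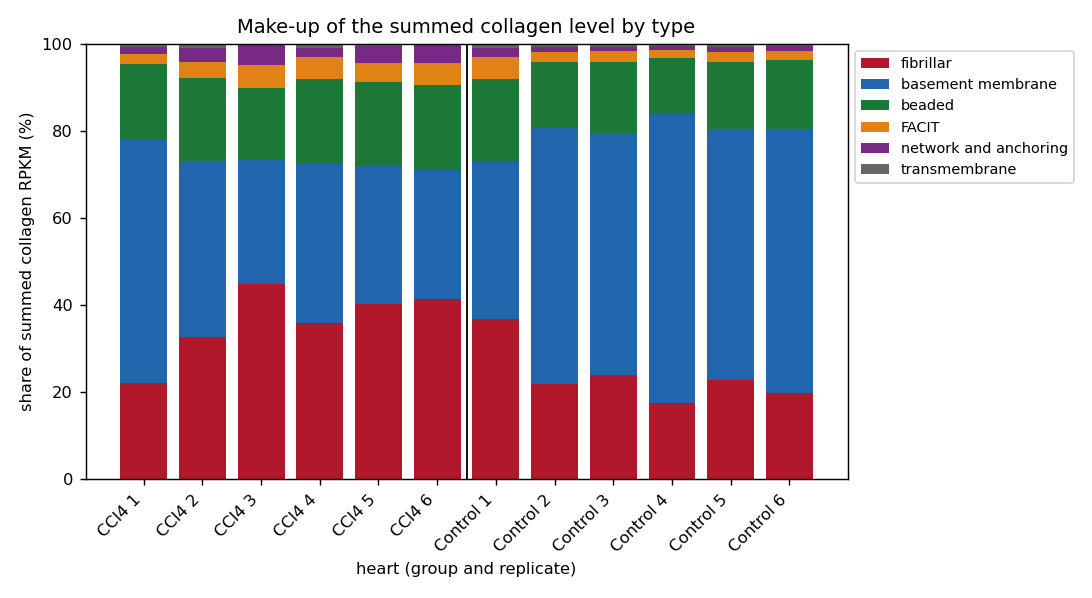
Share of the summed RPKM of the 32 collagen genes (vertical axis, percent) held by each type in each heart (CCl4 left of the line, Control right). Fibrillar genes (bottom) hold 17.5% to 23.9% in Control replicates 2 to 6, 36.7% in Control replicate 1 and 22.1% to 44.9% in CCl4 hearts.

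The order of levels in Control hearts was led by Col4a1 (75.9 ± 18.1 RPKM, SD, n = 6) and Col4a2 (52.3 ± 13.4), followed by Col3a1 (27.8 ± 9.45), Col6a1 (25.6 ± 3.53), Col15a1 (17.1 ± 2.17), Col6a2 (12.4 ± 1.84) and Col1a1 (12.2 ± 4.51). The ranges of most neighbours in this order overlapped, and those of Col6a1 and Col15a1 did not. In CCl4 hearts the highest mean was that of Col3a1, ahead of Col4a1, Col6a1 and Col4a2. These orders of means were not those of each heart. Col4a1 exceeded Col3a1 in CCl4 replicates 1 and 2, at 51.8 against 16.5 RPKM and at 27.3 against 22.2 RPKM. In Control replicate 1, Col3a1 exceeded Col4a1, at 44.8 against 42.8 RPKM, and Col6a1 exceeded Col4a2, at 31.1 against 27.5 RPKM. These levels depend on the length each gene is divided by, which here merges the exons of all its transcripts. The merged length of Col1a2 is 12426 bases, 2.32 times that of its longest coding transcript (5348 bases), and that of Col6a2 is 2.11 times longer. Scaled to the longest coding transcript, the Control level of Col1a2 would be 14.5 against 13.5 for Col1a1, and that of Col6a2 26.2 against 27.4 for Col6a1. On the same scale the Control level of Col3a1 would be 49.0 against 53.7 for Col4a2. The fits were not repeated on rescaled levels.

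Ratios between chains of the same collagen overlapped between the groups. The ratio of Col1a1 to Col1a2 ran from 1.52 to 2.27 in CCl4 hearts and from 1.78 to 2.37 in Control hearts, and that of Col4a1 to Col4a2 from 1.39 to 1.53 and from 1.39 to 1.56. Col6a1 to Col6a2 lay between 1.80 and 2.60 in CCl4 hearts and between 1.91 and 2.16 in Control hearts. The ratio of Col1a1 to Col3a1, the main stiff and compliant fibres, lay between 0.387 and 0.457 in CCl4 hearts and between 0.374 and 0.477 in Control hearts, while Col3a1 itself spanned 16.5 to 209.5 RPKM. On the log2(RPKM + 1) scale the group differences of the 4 ratios were -0.04, -0.03, -0.02 and -0.06. In the exact two-sided permutation test over all splits of the 12 hearts, whose smallest possible p is 0.00216, the adjusted p over the 4 ratios was 0.76 for each.

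Of the 32 genes, 10 lie in pairs with no other protein-coding gene between them on GRCm38. Col4a1 and Col4a2 face away from each other on chromosome 8, with gene starts 21 bases apart, and the window printed for Col4a2 covers both starts. Col4a3 and Col4a4 start 72 bases apart on chromosome 1, and Col4a5 and Col4a6 1309 bases apart on the X chromosome. Col6a1 and Col6a2 follow each other on chromosome 10, and Col3a1 and Col5a2 are neighbours on chromosome 1 with starts 191744 bases apart. Log2 differences within pairs were close for Col4a1 and Col4a2 (-0.43 and -0.40), Col4a3 and Col4a4 (0.14 and 0.09), Col6a1 and Col6a2 (0.58 and 0.60) and Col3a1 and Col5a2 (1.05 and 1.0). Col4a5 was at 0.30, and Col4a6 at -0.10 under the filter of 3 libraries. Genes on different chromosomes were close too, such as Col1a1 and Col1a2 (0.99 and 1.03) and Col14a1 and Col16a1 (0.83 and 0.87). A part of gene position in these differences was not tested. The exons of Col4a1 and Col4a2 overlap by 22 bases, those of Col3a1 overlap the model Gm47302 by 141 and those of Col4a3 overlap an opposite-strand model by 563, and reads there may be shared or lost.

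Of 20 listed genes whose products fold and modify collagen chains 19 were tested, 14 with a positive and 5 with a negative log2 difference, and 0 passed. Their median was 0.03, beside -0.05 over all genes tested. Serpinh1, the collagen chaperone HSP47, was at 38.2, 21.6, 88.9, 31.2, 39.1 and 49.3 RPKM in CCl4 replicates 1 to 6 and at 36.7 to 47.1 RPKM in Control hearts. CCl4 replicates 3 and 6 exceeded all Control hearts. The smallest p in this list were those of the lysyl hydroxylase Plod1 (4.71 ± 1.01 RPKM in CCl4 hearts and 5.47 ± 0.492 RPKM in Control hearts, limma adjusted p = 0.576) and of P3h4 (2.67 ± 0.543 and 3.23 ± 0.557 RPKM, limma adjusted p = 0.543).

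Of the 5 tested genes of propeptide cleavage, which trims procollagen before fibrils form, 4 had a positive difference and 0 passed. Adamts2, the N-propeptidase of types I and III, was at 1.01, 1.20, 9.92, 2.58, 4.59 and 5.74 RPKM in CCl4 replicates 1 to 6 and at 1.05 to 2.73 RPKM in Control hearts (log2 difference 0.79, SE 0.35, limma adjusted p = 0.466). Pcolce2, an enhancer of the C-propeptidase, had means of 4.39 ± 2.30 RPKM in CCl4 hearts and 2.52 ± 1.17 RPKM in Control hearts (limma adjusted p = 0.507). Of 6 tested collagen receptors 4 had a positive difference and 0 passed. The fibroblast integrin Itga11 was at 0.889 to 4.52 RPKM in CCl4 hearts and at 0.667 to 1.21 RPKM in Control hearts, and all 6 CCl4 hearts exceeded the median Control value (0.61, SE 0.24, limma adjusted p = 0.386). Mrc2, an uptake receptor for collagen fragments, had a log2 difference of 0.67 (limma adjusted p = 0.467).

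Of the 13 fibril partners 12 had a positive difference, with a median of 0.59, and 0 passed. Periostin, encoded by Postn and secreted by activated fibroblasts, was at 6.78, 21.2, 349, 18.8, 104 and 151 RPKM in CCl4 replicates 1 to 6 and at 7.33 to 25.4 RPKM in Control hearts (log2 difference 2.00, SE 0.76, limma adjusted p = 0.384). Lum, the proteoglycan lumican that spaces fibrils, had a log2 difference of 0.84 (SE 0.36, limma adjusted p = 0.436). Of the 3 tested collagen-cleaving enzymes all had a positive difference and 0 passed. The gelatinase Mmp2 had a log2 difference of 0.96 (SE 0.40, limma adjusted p = 0.425) and the cathepsin Ctsk 0.79 (SE 0.34, limma adjusted p = 0.435). The collagenases Mmp8 and Mmp13 did not reach the filter, with means of 0.0391 and 0.139 RPKM in CCl4 hearts and 0.0252 and 0.319 RPKM in Control hearts.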

How the data were processed

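Messenger RNA libraries of 12 hearts, 6 CCl4 and 6 Control, were grouped by sample title. The deposited values are RPKM per gene. The submitters' processing notes name GRCm38, Trimmomatic 0.36, Subread 1.5.1 and featureCounts. Total RNA went into a stranded library kit, per the labels' protocols. The aligner, the annotation and the strand setting are not given in the sources used here, so antisense reads may be included. Exon lengths and coordinates came from GENCODE release M21, and 30201 symbols had 1 length.

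Genes with at least 0.5 RPKM in 6 or more libraries were fitted with limma 3.58.1 in R 4.3.3 (trend, log2(RPKM + 1), no covariate, Benjamini-Hochberg over 14087 genes). A log2 difference is CCl4 minus Control on that scale and understates low genes. The labels do not say more of the mice, so p-values measure the spread between these hearts. Ratios were compared with an exact permutation test. The fit was tested on simulated data. Values in every heart were given for the 3 most abundant genes of each type, the 5 smallest p in each direction and the genes of the ratios, in full or as a range, and others were added. Alternatives were pseudocount, filter, scaling, weights, covariates, block, test and each library left out. The collagen genes, types and lists were chosen with earlier results of these data known.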

Additional observations from a re-analysis of the deposited data

Results flagged for a closer look

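In 7 of 72 groups of 6 values examined (each collagen gene in each group, and each ratio), 1 heart lay far from the other 5 by Dixon's ratio, which chance alone gives in about 1 in 20 groups. Control replicate 1 was that heart in 6 of the 7.

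Control replicate 1 was the lowest Control heart for Col4a1 (42.8 RPKM, others 74.6 to 97.4), Col4a2 (27.5 RPKM, others 50.8 to 67.8) and Col5a3 (3.61 RPKM, others 6.31 to 6.90). It was the highest Control heart for Col27a1 (2.02 RPKM, others 0.878 to 1.06), Col9a2 (0.750 RPKM, others 0.243 to 0.302) and Col4a4 (2.13 RPKM, others 1.18 to 1.49). Its atrial markers summed to 15000 RPKM, against 604 to 4440 RPKM in the other Control hearts, and their part in these values was not tested. Among CCl4 hearts, replicate 2 had the highest ratio of Col6a1 to Col6a2 (2.60, others 1.80 to 2.00).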

How the results depend on the processing

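With limma's array weights 14 collagen genes were called higher and 3 lower (Col11a2, Col5a3 and Col6a6), where 770 genes (5.47%) and 1479 genes (10.5%) of all tested were called. These weights ran from 0.258 for CCl4 replicate 3 to 5.70 for CCl4 replicate 5, so the calls lean on single libraries. With the atrial marker score as covariate 2 genes were higher and 17 lower, and without both libraries richest in atrial markers 1 was higher, none of them a collagen gene. Leaving out 1 library at a time gave 0 to 7 genes called higher and 0 to 40 lower, and 0 collagen genes in either direction. The median log2 difference of the collagen genes then ran from 0.07 (without CCl4 replicate 3) to 0.40. At an unadjusted p under 0.05, 11 collagen genes were higher and 2 lower with median-of-ratios scaling and 10 and 1 when depth was counted without mitochondrial transcripts, where the median of all genes was -0.01 and 0.02. The same counts were 11 and 3 without CCl4 replicate 1, 12 and 1 without CCl4 replicate 2 and 8 and 2 without Control replicate 1. Of the 27 genes in the main fit, Col7a1, Col13a1, Col18a1, Col20a1 and Col23a1, all near 0, changed sign under at least 1 alternative. The rest of the 27 kept their sign under every alternative. Col8a2, Col9a2, Col12a1, Col22a1 and Col4a6 were fitted only with the filter of 3 libraries or with no filter. Their estimate is the same in both, so their sign could not change. With the replicate number as a block (replicate block) 0 collagen genes were called and the median was again 0.28. Same-numbered hearts deviated together at r between -0.474 and 0.232. The labels do not say whether the numbers pair the hearts. These values cannot decide it, since paired hearts can also correlate weakly. The 4 ratios were called under no alternative, and their differences without 1 library lay between -0.11 and 0.02. Depth limits most the genes under 0.5 RPKM, with as few as 6 reads behind a value of Col8a2.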

Other observations

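The 12 collagen symbols that the rule left out were Col2a1, Col6a4, Col6a5, Col9a1, Col9a3, Col10a1, Col11a1, Col17a1, Col19a1, Col24a1, Col25a1 and Col26a1. Closest to the limit was Col11a1, a cartilage fibril collagen, at 0.587 RPKM in CCl4 replicate 3, 0.382 in replicate 6, 0.191 in replicate 5 and at most 0.0594 in the other CCl4 hearts, against 0.0174 to 0.104 RPKM in Control hearts. Col24a1, a fibrillar collagen of bone, was at 0.411, 0.411 and 0.206 RPKM in CCl4 replicates 3, 6 and 5, at 0.0255 to 0.112 RPKM in the other CCl4 hearts and at 0.0175 to 0.198 RPKM in Control hearts. Just inside the limit, Col22a1, Col12a1 and Col8a2 reached 0.5 RPKM in exactly 3 libraries, CCl4 replicates 3, 5 and 6. These low fibrillar and fibril-surface genes were chosen for mention after their values were seen, and no test was made on them.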
